A study of Gallus gallus with 12 samples.

Results

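Of the 9 DMC lines, chicken retinal cell lines that over-express human MYCN, 2 carried transcripts of the chicken's own MYCN gene and 7 carried almost none. The lines were selected on that value itself: a line was called on where the deposited value of chicken MYCN (ENSGALG00000016462, chromosome 3) was above 100, and off where it was under 20. DMC4 at 347 and DMC6 at 205 were on. The off lines were DMC10 at 7.52, which lies nearest to the limit, DMC9 at 5.71, DMC8 at 3.11, DMC3 at 1.14, DMC2 at 1.04, and DMC1 and DMC5 at 0. Because a readout chose the lines and 2 of them stand on one side, every difference between on and off lines is given as a description without a p-value, and chicken MYCN itself is no finding.

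All lines came from White Leghorn retinas electroporated in ovo at embryonic day 3.5 with a piggyBac vector that integrates and expresses human MYCN (hMYCN) and GFP from the CAG promoter, which is active in most cell types. Both on lines carried the T58A form of hMYCN, a mutation known to stabilise the protein, and were kept for over 200 days. Of the off lines, DMC5 shared the T58A genotype and the culture time. The old DMC lines DMC1, DMC2 and DMC3 carried unmutated MYCN and were as long in culture. The young DMC lines DMC8, DMC9 and DMC10 also carried unmutated MYCN and were in culture for less than 4 weeks. The other 3 of the 12 libraries are normal E14 retina, taken at embryonic day 14. They are shown beside the lines, and also entered the scaling and the test of T58A DMC against old DMC given below. The labels give RPMI 1640 as the medium of all lines, while the column of DMC6 is headed DMEM.1 and those of DMC4 and DMC5 RPMI.1 and RPMI.2. Each line is 1 library, so what belongs to a line and what belongs to its library cannot be told apart.

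MYCN is a basic helix-loop-helix transcription factor that binds DNA together with MAX and drives growth and division of neural progenitors. MYC family genes are known to repress one another's transcription, and a cell that carries an active MYC transgene often shuts down its own copies. In the retina MYCN is expressed in dividing progenitors, and its amplification is known from a class of retinoblastoma without RB1 loss.

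Values below are normalized counts, the recovered read number of a gene over its library total and TMM factor, rescaled to the average library of the 12. Differences are those of mean log2(normalized count + 1), on minus off lines, and are called log2 differences. Where no line of a side exceeded 3 reads, the fold was computed against 3 reads per library and is given as at least that large, covering counting error only. Chicken MYCN stood at 354 in DMC4 and 245 in DMC6, against 0, 0.939 and 9.97 as the lowest, median and highest of the off lines, and at 744 ± 61.5 (SD, n = 3) in E14 retina. In reads, these values came from 318 and 213 in the on lines, 0 to 9 in the off lines and 797, 805 and 896 in E14 retina. The on lines thus lay below the retina libraries and far above every off line. Among the off lines, the long-cultured ones held 0 or 1 read and the young ones 3 to 9.

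The transgene did not follow this pattern. hMYCN was at 196370 in DMC4 and 200360 in DMC6, with 61789, 249884 and 313643 in the off lines, and the on lines lay inside the off range (log2 difference 0.01). GFP, encoded on the same transcript, was at 311889 and 306644 against 98287, 365756 and 478530 (log2 difference 0.02). The lowest value of both belonged to DMC5, the off line with the T58A genotype, where hMYCN and GFP took 0.528% of the reads, against 2.17% in DMC4, 1.99% in DMC6 and 1.54% to 2.70% in the other off lines. Relative to DMC5 alone, the on lines were 1.68 higher in hMYCN and 1.65 higher in GFP on the log2 scale. The chicken and the human sequence are counted as separate rows. DMC3, with the most hMYCN reads of all lines (334150), held 1 read of chicken MYCN.

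**Figure D1:**
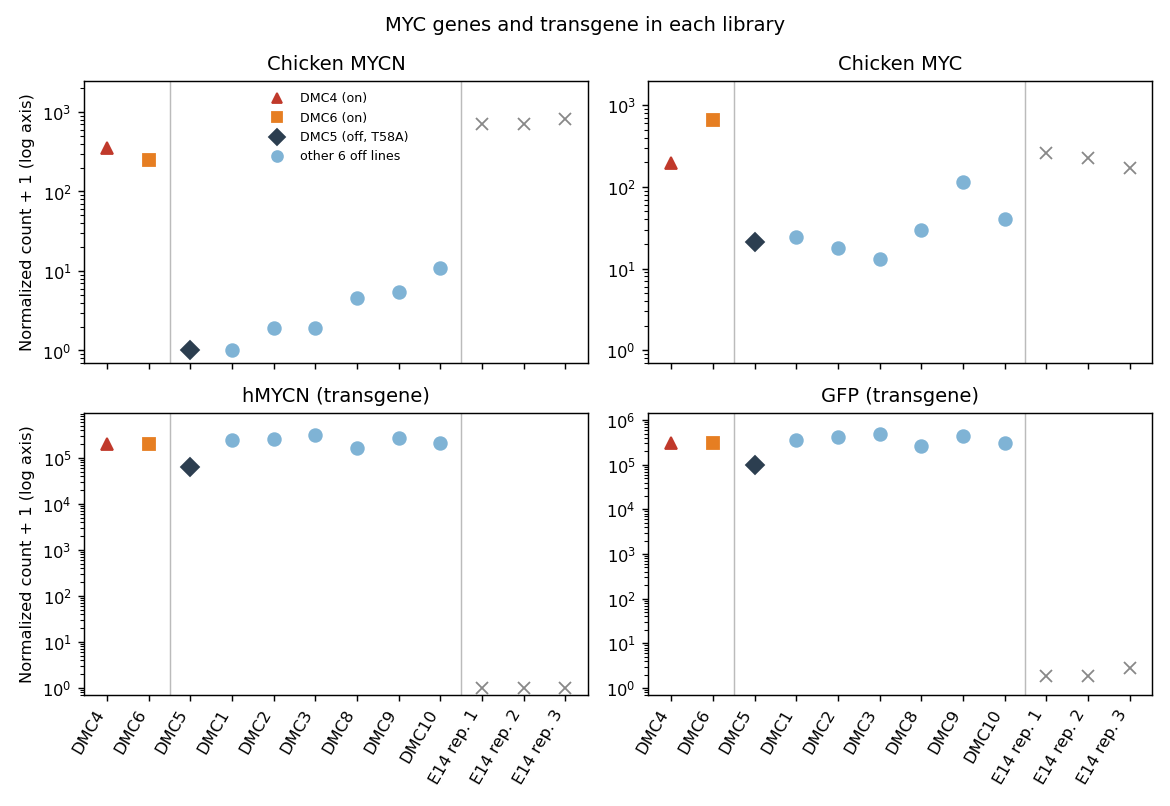
Normalized count + 1 (log axis) of chicken MYCN, chicken MYC, hMYCN and GFP in each of the 12 libraries, with 1 point per library, in the order on lines, off lines and E14 retina. Chicken MYCN and MYC are higher in both on lines than in all 7 off lines, while hMYCN and GFP of the on lines lie within the range of the off lines.

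The other MYC genes did not all go the way of MYCN. MYC was at 195 in DMC4 and 658 in DMC6 against 12.2, 23.1 and 112 in the off lines, so that both on lines were above all off lines (log2 difference 3.64), with 216 in E14 retina. MYCL, the third family member, was lower, at 545 and 394 against 797, 1119 and 1562 (log2 difference -1.26). MAX, the shared partner, was below all off lines by a log2 difference of -0.47, at 509 and 496 against 562 to 1014, and the repressors MNT, MXD4 and MXD3 overlapped between on and off lines. Of the 12 genes of this network, MYC and MYCL were the ones set apart, a term used here for genes in which both on lines lie above, or both below, all 7 off lines with a log2 difference of at least 1. This is 8.33% each way, near the 10.3% upward and 9.73% downward of all genes given below. With library totals in place of TMM scaling, MYC was set apart and MYCL was not.

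Over all 14710 genes with at least 10 reads in at least 2 of the 9 lines, 1519 were set apart upward in the on lines and 1431 downward. These are 10.3% and 9.73% of the genes kept, and the counts below are read against those shares. Without the requirement on the size of the difference, 15% of genes had both on lines above all off lines and 15.5% had both below. A symbol was at hand for 1143 of the upward and 1148 of the downward genes. The split between the directions depends on the scaling, since library totals without TMM factors gave 2059 upward and 974 downward genes and moved the median log2 difference of all genes from -0.04 to 0.22, while the values as deposited gave 1242 and 1761 with a median of -0.19. Both on lines had the smallest read totals of the 9 lines, 20984957 and 22199683 against 23401769 to 35088450, and the largest TMM factors, 1.14 and 1.04 against 0.842 to 0.998. Whether depth had a part in the counts was not tested beyond these scalings.

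Across the kept genes, and as a description, the Pearson correlation of log2 values was 0.910 between DMC4 and DMC6, 0.892 to 0.962 with a median of 0.934 between off lines, and 0.821 to 0.882 between an on and an off line. DMC5 correlated at 0.914 to 0.953 with the other off lines and at 0.857 and 0.876 with the on lines. Among set-apart genes, 890 upward and 555 downward genes also separated the mean of the on lines from DMC5 by at least 4-fold. Compared with DMC5 alone, 2661 genes were upward and 2033 downward, of which 1316 and 1033 were among those set apart from all 7 off lines. A gene beyond all 7 is also beyond DMC5, so this overlap was largely fixed in advance.

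Reads from the sex chromosomes split the lines in another way. Genes assigned to chromosome W, which hens carry and cocks lack, summed to 2823 reads in DMC4 and 4102 in DMC6, to 1025 to 2933 in the off lines DMC5, DMC8 and DMC9, and to 47823 to 76510 in DMC1, DMC2, DMC3 and DMC10. Among 541 genes of chromosome Z, 91 (16.8%) were set apart upward and 41 (7.58%) downward, where 10.3% and 9.73% of all genes were. RANBP3L, NPR3 and RBP4, named below among the widest gaps, were assigned to chromosome Z. Against the off lines with few W reads alone, a comparison chosen after seeing the data, 1950 genes were upward and 1827 downward. Of those, 1442 and 1317 were set apart from all off lines too. A gene beyond all off lines is beyond each of them, so only the limits on difference and reads could reduce this overlap. It does not show whether the sex of the lines had a part.

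**Figure D2:**
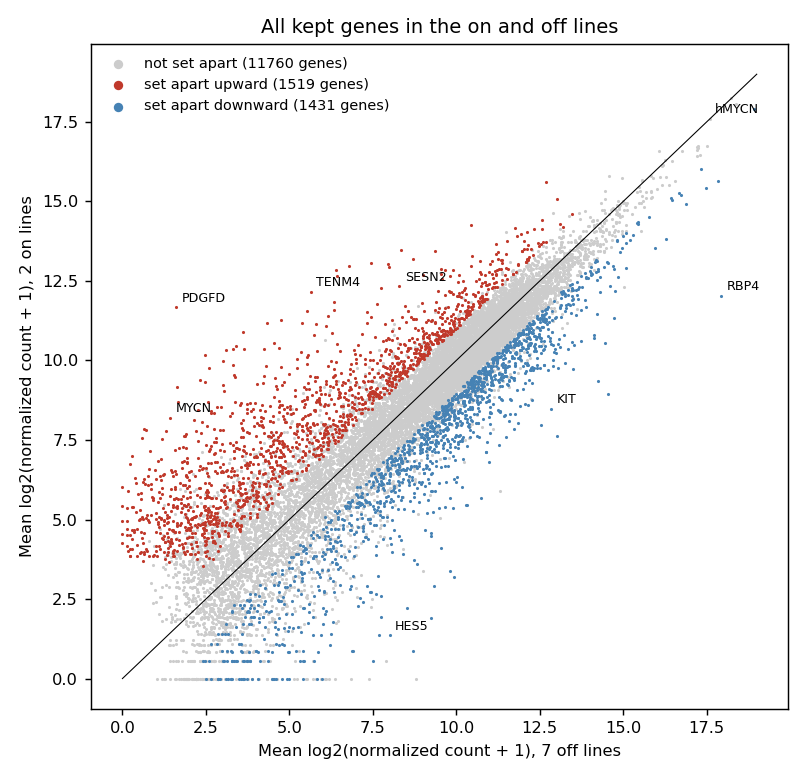
Mean log2(normalized count + 1) in the 7 off lines (x axis) and the 2 on lines (y axis) for the 14710 genes kept, with 1 point per gene and the line of equality. The 1519 genes set apart upward are red and the 1431 set apart downward blue, and hMYCN sits on the line while MYCN, PDGFD and TENM4 lie far above it and RBP4, KIT and HES5 below.

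The comparison that the labels define, T58A DMC against old DMC, holds both on lines and DMC5 in its T58A group and is therefore not independent of the rule. With limma over all 12 libraries, 5 genes were higher (0.0327% of 15284 genes tested) and 1 was lower (0.00654%) at an adjusted p of at most 0.05 and a 2-fold change, and 3016 genes had an unadjusted p under 0.05. The study's edgeR exact test reported many more genes for this comparison at the same limits. The reason for that difference was not tested. Chicken MYCN was not called by limma (4.83 on the log2 scale with a standard error of 1.69, limma adjusted p = 0.161). Of the 6 genes called by limma, 3 were set apart upward and 1 downward in the on lines. Among those with a symbol, YLEC8, a C-type lectin-like gene of a multigene family whose counts may be shared among copies, was at 1116 and 1786 in the on lines against 0, 0.939 and 938, where the highest value was that of DMC5, and CCDC27 at 4.46 and 9.19 against 21.5, 143 and 184. Leaving out DMC5 gave 2610 calls, which set lines chosen by their MYCN value against old DMC and are therefore no test. Leaving out any other library gave 0 to 27.

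The genes with the widest gap between the nearest on and off lines included a group of secreted ligands and receptors. PDGFD, a platelet-derived growth factor, was at 5822 in DMC4 and 1818 in DMC6 against 0, 1.93 and 10.6 in the off lines (log2 difference 10.06), with 131 in E14 retina. OSTN, a peptide hormone that in mammals binds the clearance receptor NPR3, was at 1311 and 777 against 3.85, 5.97 and 15.02. NPR3 itself was at 1011 and 493 against 4.43, 8.45 and 20.3. OSTN and NPR3 were both picked by the width of this gap, so their shared pattern follows from the choice. In E14 retina OSTN was at 0 and NPR3 at 505. DMC4 was the higher of the on lines for PDGFD, OSTN and NPR3. CCL4, a chemokine that attracts leukocytes, was at 2098 and 620.1 against 0.939, 5.63 and 18.9. The cytokine receptor gene TNFRSF8 was at 1239 and 614 against 2.36, 4.49 and 10.6.

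Among the intracellular and surface proteins of the same rank, FRK, a tyrosine kinase of the Src family, was at 188 and 277 and had at most 3 reads in each off line, so that the on lines were at least 75.2-fold higher. FAP, a membrane serine protease of activated fibroblasts, was at least 31.1-fold higher (98.1 and 94.2), and AKR1D1, a steroid reductase, at least 15.4-fold higher (71.3 and 24.1). All 3 held at most 3 reads in each off line, so the filter kept them only because both on lines had at least 10. Their detection in both on lines was therefore fixed by the filter. In E14 retina FRK was at 0, FAP at 17.8 and AKR1D1 at 227, the last above both on lines. The mechanosensitive channel gene PIEZO2 was at 2717 and 633 against 7.17, 10.6 and 26.1, and the potassium channel gene KCNQ5 at 167 and 204 against 0, 0.939 and 5.78. CYTH4, an exchange factor for ARF GTPases, HDGFL3 and RANBP3L completed the group, with log2 differences of 7.29, 6.85 and 7.22. HDGFL3 illustrates a gene that is also high in normal retina, at 3352 and 1624 in the on lines, 3.58 to 43.1 in the off lines and 3246 in E14 retina.

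The widest gaps upward also included SLIT2 and TENM4. SLIT2, a secreted repellent of axons, was at 2204 and 1029 against 11.3, 21.5 and 44.3, and in E14 retina at 1516. TENM4, a teneurin of the cell surface, was at 4029 and 5176 against 20.2, 45.99 and 172. Whole families were then counted by symbol, a choice made after these values were seen. Of 7 teneurin and CADM adhesion genes kept, 4 were set apart upward and 0 downward (57.1%, where 10.3% of all genes were upward). CADM3 was at 4751 and 8669 against 21.6, 73.0 and 257. Of 16 SLIT, ROBO, netrin, DCC and UNC5 genes, 5 were upward and 1 downward (31.25% and 6.25%, where 10.3% and 9.73% of all genes were). The latter was ROBO2, at 362 and 1001 against 1692, 3267 and 4381. Its paralogue ROBO1 was upward at 1569 and 1588 against 63.8 to 1153. The 24 semaphorins and plexins went both ways, with 5 upward and 4 downward (20.8% and 16.7%). SEMA5A was at 2018 and 2717 against 19.9 to 111, and its paralogue SEMA5B at 97.0 and 712 against 1543 to 5589.

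The widest gaps downward included some genes of photoreceptors and of retinoid handling. RBP4, a retinol carrier, was at 2581 in DMC4 and 6826 in DMC6 against 112017, 219210 and 699348 in the off lines (log2 difference -5.91), and the highest value belonged to DMC5. RBP3, the retinoid-binding protein that photoreceptors secrete into the space around the outer segments, was at 226 and 1069 against 14603, 24229 and 33036. Both were still detected in the on lines, at lower levels. GNAT2, the transducin subunit of cones, was at 1.11 in DMC4 and 25.3 in DMC6, against 217, 808 and 1875. PTGDS, a prostaglandin D synthase, was at 13.4 and 19.5 against 473, 629 and 1307, and CFTR, a chloride channel, at 1.11 and 5.74 against 91.1, 572 and 2008. A list of 21 genes of retinoid handling was drawn up once these values were known. In it, ALDH1A2 and RBP7 were upward and RBP4, RXRG, RBP3 and RPE65 downward. These are 9.52% and 19.05%, where 10.3% and 9.73% of all genes were. The other 15 genes were not set apart. The median log2 difference of the list was 0.27, against -0.04 for all genes, so the list as a whole was not lower. HES5, a repressor induced by Notch, was at 5.57 and 0 against 70.5, 413 and 676.

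Other wide gaps downward were in CPED1, TPBGL, C1orf116, ANKRD33B, CCDC180, CA3B, MYO7B and ANKEF1. CPED1 had no read in either on line and was at least 22.3-fold lower, and TPBGL, likewise without a read, at least 15.4-fold lower. ANKRD33B was at 105 and 119 against 1278, 2079 and 3048, and CA3B at 33.4 and 54.0 against 543, 1502 and 2801. MYO7B stood at 36.8 and 35.6 against 313, 512 and 941. Wide gaps were fewer downward than upward, since the nearest on and off lines were at least 4-fold apart in 72 downward genes and 226 upward genes. In 57 upward genes no off line exceeded 3 reads, and in 108 downward genes neither on line did. Those 57 could pass the filter of 10 reads in at least 2 lines only through both on lines. The same holds for every other upward gene with under 10 reads in each off line, such as PDGFD and KCNQ5.

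**Figure D3:**
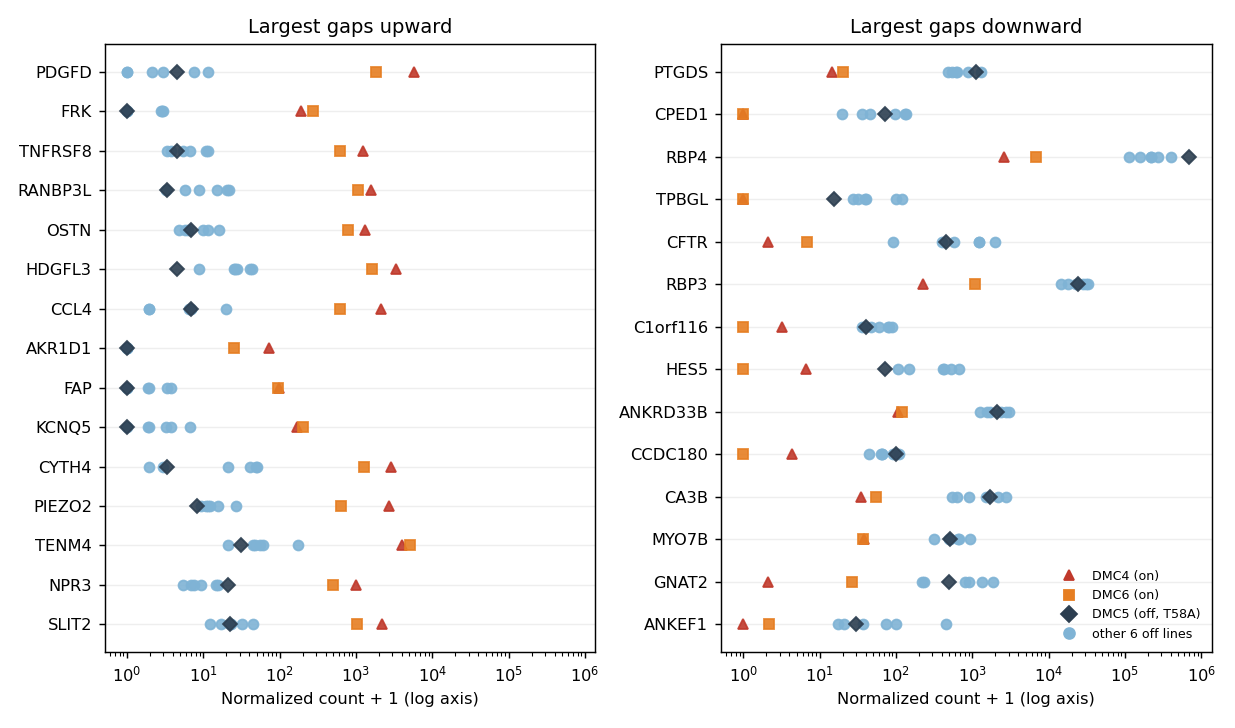
Normalized count + 1 (log axis) of the 15 genes with the widest gap upward and 14 of those with the widest gap downward, with 1 point per DMC line. In each gene the red and orange points of DMC4 and DMC6 lie on one side of all off lines, and DMC5, the dark diamond, lies on the side of the off lines.

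The photoreceptor lists were counted as wholes. Of 26 regulators of photoreceptor fate kept, 10 were set apart downward and 0 upward (38.5%, where 9.73% of all genes were downward), and the median log2 difference of the list was -1.17 against -0.04 for all genes. RXRG, a nuclear receptor of cones, was at 1709.5 and 1312 against 13563, 24938 and 31908. THRB, the thyroid hormone receptor needed for red cones in mammals, was at 430.2 and 369.8 against 2074, 4349 and 7572. DMC5 held the highest value of both among the off lines. OTX2, which specifies photoreceptor precursors, was at 3829 and 6657 against 9044, 15335 and 17555. SALL1, NEUROD1, RORB, RAX2, ISL2, NEUROD4 and TBX2 were the other members set apart, with log2 differences between -1.28 (NEUROD4) and -3.43 (TBX2). Several members overlapped between on and off lines, among them SIX3 at 1246 and 2754 against 1919 to 2620.0, PRDM1 at 3725 and 578 against 1202 to 4289.6, and NR2E3 at 188 and 1114 against 1075 to 2873.

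Genes of the light response followed. Of 17 cone genes, 6 were downward and 0 upward (35.3%, median log2 difference -2.76). OPN1LW, the red opsin, was at 13.4 and 39.0 against 225, 632 and 2461, and CNGB3, a subunit of the cone channel, at 34.5 and 165 against 344, 1004 and 4027. PDE6H, the inhibitory subunit of the cone phosphodiesterase, overlapped, at 5118 and 6801 against 2456, 8363 and 12712. Of 13 outer segment genes, 9 were downward and 0 upward (69.2%, median -3.43), including PRPH2, a structural protein of the discs, at 22.3 and 111 against 556, 1771 and 4626, and ABCA4, a retinoid transporter, at 121 and 241 against 722, 2429 and 4973. Of 7 rod genes, PDE6B and GRK1 were downward and 0 upward (28.6%). PDE6B, a subunit of the rod phosphodiesterase, was at 99.2 and 384 against 1526, 10751 and 23728. In bulk RNA, fewer cells of a type and less RNA per cell cannot be told apart. DMC4 was the lower of the on lines in 5 of the 6 cone genes set apart.

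Genes of cell division were counted next. Of 21 proliferation genes, 14 were set apart downward and 0 upward (66.7%, median log2 difference -1.84). MKI67, expressed in cycling cells, was at 3261 and 3348 against 4082, 10046 and 13126, TOP2A, a topoisomerase of mitosis, at 4814 and 11854 against 17642, 30851 and 34921, and PLK1, a mitotic kinase, at 792 and 1168 against 1838, 4188 and 7344. DMC5 held the highest value of all 3. Both on lines were above E14 retina in each of them, which stood at 216, 625 and 125. A list of DNA replication factors was written after these values were seen and shares members with the former. Of its 32 genes, 18 were downward and 0 upward (56.25%, where 9.73% of all genes were downward). Its MCM3 was at 121 and 311 against 945, 1566 and 2561. MCM3 and RRM1, like 926 of the 1431 downward genes, were lower in DMC4 than in DMC6. Among 12 E2F and RB family genes, RBL1 and E2F8 were downward (log2 differences -1.17 and -2.47) and 0 upward. This is 16.7% of the list, where 9.73% of all genes were downward. E2F8 was all but tied between the nearest lines, at 360.6 in DMC6 and 361.1 in the off line DMC1. RB1 overlapped, at 1082 and 1728 against 1338 to 1948. E2F8 and RBL1 were not set apart with library totals in place of TMM factors.

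MYC family proteins are known to drive cell cycle and growth genes. Of 16 cell cycle targets, 5 were downward and 0 upward (31.25%, where 9.73% of all genes were downward). These 5 were CCNB1, CCNA2, CCND2, CCNE2 and CDK2, the last at 195 and 689 against 1160.3, 2376 and 2771. CCNB1 and CCNA2 separated narrowly, at 3345 and 2979 in DMC6 against 3496 and 3098 in DMC1, the lowest off line for both. E2F1 and CDK1 overlapped, since DMC1 at 1843 and 1652 was below DMC6 at 2484 and 1739. CCND1 overlapped at 3389 and 2769 against 2025 to 3851. Of 26 growth targets, MTHFD2 was upward and CAD, PTMA and ODC1 downward (3.85% and 11.5%, against 10.3% and 9.73% of all genes), and the median was -0.10. ODC1, the polyamine enzyme and a much used MYC target, was at 3715 and 5756 against 14812, 25982 and 48025. The nucleolar gene NCL overlapped at 89509 and 71858 against 62546 to 103218. NPM1, also nucleolar, was above all off lines, at 110517 and 88581 against 55241 to 82602, with a log2 difference of 0.53 that is under the limit. With library totals the growth list had 4 upward and 2 downward genes and its median turned to 0.16. Among 12 genes of MYC protein turnover, USP36, a deubiquitinase that in human cells protects MYC, was upward at 9569 and 7438 against 2683, 3534 and 5330.4. The kinases AURKA and PLK1 were downward (8.33% of the list upward and 16.7% downward).

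Genes of the response to amino acid shortage and of serine and proline synthesis were upward in part. This list was written after SESN2 and MTHFD2 had been seen upward and lends them no support. Of its 26 genes, 12 were upward and 0 downward (46.2%, where 10.3% of all genes were upward). The median log2 difference was 1.61. ATF3, a stress-induced transcription factor, was at 14241 and 26887 against 451, 1211 and 4180.4. SESN2, which senses leucine, was at 4892 and 5462 against 55.4, 282 and 1376. PSAT1 and PSPH, successive enzymes of serine synthesis, were at 9618 and 19858 against 1287 to 5634 and at 4489 and 27455 against 161 to 1709. PYCR1 and ALDH18A1 of proline synthesis had log2 differences of 2.05 and 1.82. ATF4, the factor that drives this programme mainly through its translation, did not separate at the RNA level, at 24516 and 29845 against 14704, 22996 and 50726. CHAC1, another of its targets, overlapped through DMC2, the highest off line, with 17531 and 16069.9 against 558, 2060.3 and 20263.

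Glycolysis is a main energy source of retinal cells. Of 16 genes of glycolysis, a list also drawn up once values were known, ENO1, GAPDH, PGAM1 and GPI were downward and PFKM upward. These are 25% and 6.25%, where 9.73% and 10.3% of all genes were. ENO1 was at 44179.6 and 58120.5 against 158580, 266390 and 366751, and GAPDH, often used as a reference gene, at 25674 and 74469.5 against 92053, 185432 and 279386. LDHA overlapped, at 6373 and 4002 against 3839.9, 52578 and 106180. In the list of respiration and glycolysis genes, ENO1, GAPDH and CA9 were downward and 0 upward of 15 (20%). CA9, a carbonic anhydrase induced by hypoxia, was at 32.3 and 3.45 against 34.7 to 1933. With library totals, 2 of those 15 genes were downward.

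Of 23 genes of FGF signalling and receptor tyrosine kinases, 9 were upward and 1 downward (39.1% and 4.35%, where 10.3% and 9.73% of all genes were, with a median log2 difference of 1.13). RET, the receptor of GDNF family ligands, was at 709 and 544 against 6.65, 16.5 and 46.2, and ALK, a kinase mutated in neuroblastoma, at 156 and 189 against 0.939, 7.17 and 23.4. ERBB4, MET and FGFR2 were upward as well (log2 differences 3.76, 2.98 and 1.62), as were the ligand FGF19 and the feedback genes ETV4, DUSP6 and SPRY1. KIT was the exception, at 338 and 379 against 1953, 8283 and 16877. FGFR1 overlapped, at 4029 and 7838 against 2563 to 6532. Of 12 hedgehog genes, SHH, GLI2 and CDON were upward and 0 downward (25%, where 10.3% of all genes were upward, median 0.90). The other 9 were not set apart. SHH was at 18.9 and 111 against 0, 0.939 and 5.78, and the target genes PTCH1 and GLI1 overlapped. Of 20 WNT genes, LRP6 and RNF43 were upward and FZD1 and SFRP1 downward (10% each way). Of 17 rows of Notch genes, NOTCH2 and MFNG were upward and HES4 and HES5 downward (11.8% each way). NOTCH1 overlapped at 6.69 and 116 against 0.939 to 269.6. The WNT and Notch counts were thus near the shares of all genes, 10.3% and 9.73%.

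Of 25 genes of p53 and apoptosis, 5 were upward and 0 downward (20%, where 10.3% of all genes were upward), and the median of the list was 0.15. FAS, a death receptor, was at 456 and 122 against 5.63, 10.3 and 27.0. BAK1, APAF1 and SESN2 were upward as well, of which SESN2 also belongs to the amino acid list. MDM2 and TP53INP1, both targets of p53, overlapped, at 2473 and 1729.5 against 1337 to 3129 and at 2796 and 3108 against 2744 to 3928. With the deposited values the median turned to -0.07 and 4 genes were upward. Of 23 genes of chromatin silencing, UHRF1, CBX7 and PCGF2 were downward and 0 upward (13.0%). With library totals 1 was downward and 4 were upward. Interferon genes numbered 1 upward (EIF2AK2) and 1 downward (IRF7) of 12 (8.33% each way, where 10.3% and 9.73% of all genes were). Of 8 genes around LIN28B, IGF2BP1 was downward (12.5%) at 42.3 and 871 against 1244 to 2205, and LIN28B overlapped. Of 12 neuroblast and MYCN tumour genes, ODC1 and TBX2 were downward and 0 upward (16.7%). No HOX gene of 31 in the table had a read in either on line, and the highest value of any of them in an off line was 30.8 (HOXA9).

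**Figure D4:**
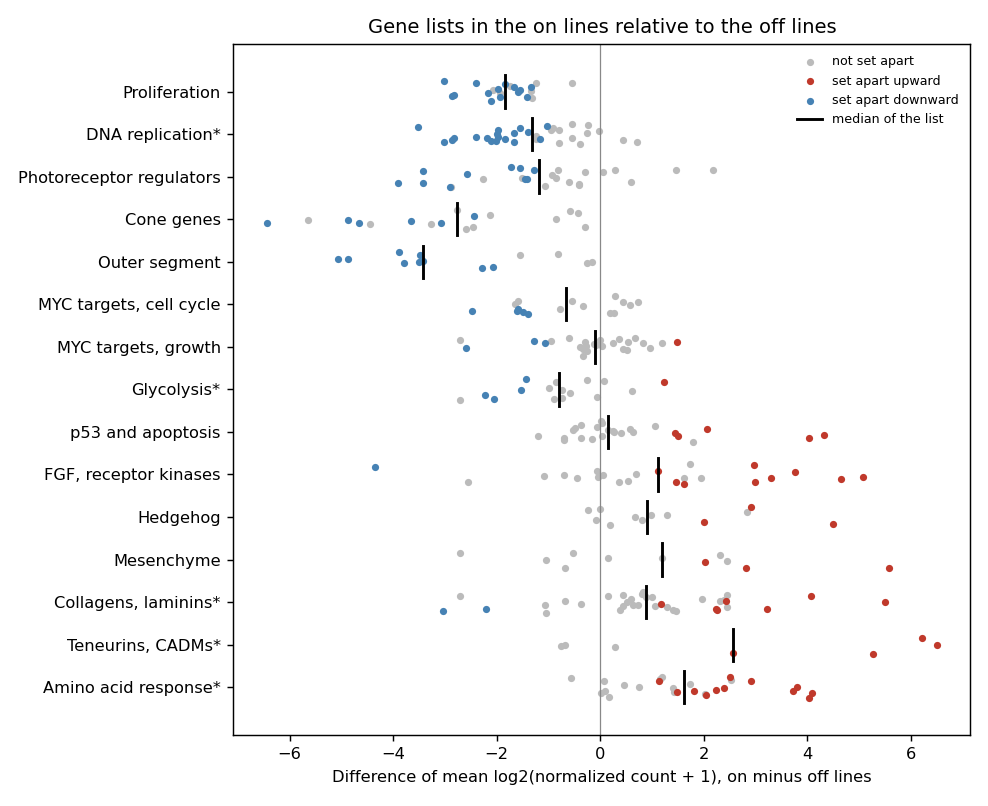
Log2 difference, on minus off lines, of each kept gene of 15 lists, with 1 point per gene, red or blue where it is set apart, and the median of the list as a black bar. Lists marked with an asterisk were written after values had been seen. Proliferation, DNA replication, cone and outer segment genes lie mostly left of 0 and amino acid response genes mostly right, while the MYC growth targets and the p53 list spread to both sides.

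Markers of other cells that a retinal culture could hold were examined in the same lines. PAX6 is carried by amacrine and ganglion cells and progenitors. It was at 0 and 1.15 in the on lines, at 0, 2.70 and 42.4 in the off lines, and at 11932 in E14 retina. PRDM13 and ISL1 had no read in either on line, and their highest values in the off lines were 0 and 27.1. Low counts of these genes were thus common to on and off lines. Of 13 ganglion cell genes kept, ELAVL4, GAP43, DCX and POU4F3 were upward and NEFL downward (30.8% and 7.69%, where 10.3% and 9.73% of all genes were). POU4F3, at 84.7 and 19.5 against at most 1.11, passed the filter only through both on lines. A second row of POU4F3 was at 0 in both on lines and was not kept. ISL1, ATOH7, NRN1, POU4F1 and POU4F2 of the same list were not kept either. The summed counts of the 13 were 8397 and 8505 in the on lines against 7135 to 10011 in the off lines. Of 14 amacrine and horizontal cell genes, SLC6A9, a glycine transporter, and NPY were upward (14.3%), and the sums were 21119 and 15626 against 6001 to 11149. SLC6A9 alone was at 19995 and 13942 against 2735 to 7389. It made up most of both sums, and 12 of the 14 genes were not set apart. Among these, ONECUT1 was below all off lines, at 117 and 177 against 189 to 335. CALB2 overlapped, at 6.69 and 81.5 against 15.3 to 977. The 18 genes of bipolar cells, Müller glia and progenitors had 2 upward (GLUL and FGF19) and 2 downward (HES5 and SFRP1). This is 11.1% each way, near the 10.3% and 9.73% of all genes. Their sums were 7439.8 and 8365 against 4065 to 7300.5.

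Markers of non-neural cells were counted in the same way. Of 11 mesenchymal genes, FN1, ACTA2 and PRRX1 were upward and 0 downward (27.3%, where 10.3% of all genes were upward, with a median log2 difference of 1.20), with sums of 3892 and 7579.6 against 1606 to 11058. ACTA2, the smooth muscle actin, was at 366 and 286 against 0, 6.57 and 16.9, while COL1A1 overlapped at 184 and 799 against 15.02 to 350.2. LUM and DCN had no read in either on line, and medians of 0 and 1.88 in the off lines. Of 35 collagen and laminin genes, counted by symbol after the values were seen, 7 were upward and 2 downward (20% and 5.71%), with COL4A1 of basement membranes at 925 and 2285 against 19.9, 109.9 and 299.9. Pigment epithelium genes included TYR upward and RPE65 and DCT downward of 8 (12.5% and 25%, sums 28121 and 38126 against 24026 to 75043), and PMEL overlapped. Lens genes had sums of 314 and 349 against 186 to 635, and CRYAA and BFSP1 were upward of 10 (20%). Of 9 endothelial and blood genes TEK was upward (11.1%), with sums of 1517 and 982 against 551 to 1341. CDH5 was at 0 and 1.15 against 0 to 2.39. Of 7 immune genes TLR4 was upward and PTPRC downward (14.3% each way), with sums of 3484 and 6118 against 4591 to 6251. SPI1, C1QA and C1QB of microglia held 0 or 1 read in each on line. In the off lines their medians were 0, 1.19 and 0. Of 6 pluripotency and germ cell genes, DDX4, an RNA helicase of germ cells, was upward (16.7%) at 1006 and 411 against 1.93, 2.82 and 25.2. DAZL was at 11.1 and 1.15. How far other cells contributed to the genes set apart was not tested.

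Normal retina was set beside the lines as a description. The mean of E14 retina exceeded all 7 off lines in 687 of the 1519 upward genes (45.2%) and in 4522 of the 14710 genes kept (30.7%). It was below all off lines in 682 of the 1431 downward genes (47.7%) and in 4823 of the genes kept (32.8%). The same off lines chose the upward and downward genes, so these shares can exceed those of all genes by that choice alone. They do not show whether the on lines lie nearer to retina. E14 retina correlated at 0.710 to 0.754 with the on lines and at 0.747 to 0.787 with the off lines over all genes kept.

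The genes next to MYCN on its chromosome were examined for the same pattern. Of the 10 annotated genes on either side of MYCN in the RefSeq annotation, 8 of 20 were matched to the table and 7 were kept. DDX1, which is often co-amplified with MYCN in human tumours, was at 6304 and 5862 against 4236, 5478 and 5903, and NBAS at 1112 and 1173 against 1079, 1311 and 1619.6. FAM49A, on the other side of MYCN, was set apart downward at 1155 and 2231 against 3512, 4121 and 5415. TRIB2, VSNL1, SMC6 and GEN1 overlapped between on and off lines. FAM84A, listed as LRATD1 in the table, was not kept, at 23.4 and 3.45 against 0, 0 and 5.63.

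The genes whose log2 values went most closely with chicken MYCN over the 9 lines were CD3D, TEX12, DRC7, LSP1P1, NDEL1, SLC16A5, TEKT5, MMP24, TENM4 and KCTD7, with Pearson's r from 0.960 to 0.982 and Spearman's rho from 0.770 (SLC16A5) to 0.962 (DRC7). Each gene is compared with MYCN within the same 9 libraries, which differ in depth, and both on lines hold the high values of MYCN. MYCN chose these lines, so a gene that separates them from the off lines gets a high r by that choice. In the off lines MYCN held 0 to 9 reads, so rho and the order of these genes rest in part on very few reads. CD3D, a chain of the T cell receptor complex, was at 508 and 252 against 8.36, 12.5 and 26.6. NDEL1, a partner of dynein, differed less and from a higher level, at 2448 and 2669 against 872, 1149 and 1383 (log2 difference 1.17). MMP24, a membrane metalloprotease, was at 306 and 241 against 127 to 177 and did not reach the log2 difference of 1. KCTD7 was at 3534 and 3804 against 519, 706 and 926.

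The on lines were not interchangeable, though their correlation of 0.910 lay within the 0.892 to 0.962 of pairs of off lines. DMC4 and DMC6 differed by more than 4-fold from each other in 88 upward genes (5.79%), 93 downward genes (6.50%) and 1562 of all genes kept (10.6%). Set-apart genes have both on lines on the same side of the off lines, which can lower their shares. DMC4 was the higher in 824 of the upward genes and the lower in 926 of the downward genes. Genes high in DMC6 alone included MITF, the regulator of pigment cells, at 2471 in DMC6 and 184 in DMC4 against 132, 179 and 284 in the off lines, and LGR5 at 596 in DMC6 and 7.80 in DMC4 against 2.36 to 28.9. Both were chosen after their values were seen. Without DMC6, 2250 genes were upward and 2471 downward, and without DMC4 1926 and 1952. With only DMC4 or only DMC6 on the on side, non-overlap is easier to meet, so these counts can rise for that reason alone.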

How the data were processed

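RNA-seq of 9 DMC lines and 3 E14 retinas was made from polyA-selected stranded libraries. Per the methods of the study, reads were trimmed by their first 10 bases, aligned with nf-core/rnaseq, and fragments were counted with featureCounts 2.0.0 on galGal6. The deposited signal values are gene counts that the authors divided by TMM factors. Each value above 0 (205632 of 205632, within 0.001) became a whole number when multiplied by 1 of 12 factors, which range from 0.842 to 1.20. These factors were applied in turn down the rows, and in 8.36% of values the factor was that of the library itself. The reads were therefore recovered, and each library was scaled by its total and its own TMM factor. A pseudocount of 1 was used on the log2 scale, and fold changes of low genes are understated by it. The deposited values are no raw counts and were not used as they are for the tests. The study's exact test was not run on the recovered reads and was replaced by limma 3.58.1 in R 4.3.3. limma was fitted to 4 groups over 12 libraries, with at least 10 reads in at least 3 libraries and Benjamini-Hochberg adjustment. Its p-values measure the spread between these samples only, since each line is 1 culture. The steps were tested on simulated data. Python 3.11.15 was used for the rest. No column belonged to samples outside the series (0).

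Of 15416 Entrez identifiers given, 14940 were found in RefSeq, whose annotation (GRCg7b) gave 1204 further names, the chromosomes and the neighbours of MYCN. Coordinates were not used here because the builds differ. Named genes were MYCN and the transgene, the 15 genes with a symbol and the widest gap between nearest on and off lines in each direction, the 10 closest to MYCN by Pearson's r, 10 neighbours on each side, and members of gene lists, of which some are not reported here. The lines, rules and 30 lists were chosen with earlier results of these data known, and 8 further lists were added after the values had been seen, so that no list is independent support.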

Additional observations from a re-analysis of the deposited data

Results flagged for a closer look

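Among the 42 genes named by rank or as controls, 4 had an off line far from the other 6. The gap divided by the range exceeded Dixon's critical value for 7 samples, which chance passes in about 1 in 20 groups of normally distributed values. The ratio was taken on normalized counts and not on log2 values. Such counts can be skewed toward high values, so that rate need not hold here. TENM4 was at 172 in DMC8, where the median of the off lines was 45.99, with a ratio of 0.746. ANKEF1 was at 452 in DMC8 against a median of 35.7, with a ratio of 0.811. CCL4 was at 18.9 in DMC9 against 5.63, with a ratio of 0.719, and PIEZO2 at 26.1 in DMC9 against 10.6, with a ratio of 0.615. All 4 values were the highest of their gene among the off lines, and both of these lines are young DMC.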

How the results depend on the processing

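The numbers of genes set apart were within 1.5 times of 1519 upward and 1431 downward under the alternatives to scaling, pseudocount and filter, and without the genes of chromosomes W and Z. Non-overlap without a minimum difference gave 2279 downward genes, a minimum of 4-fold gave 872 upward and 540 downward, and DMC5 as the only off line gave 2661 upward. Leaving out each line in turn gave 1526 to 2250 upward and 1446 to 2471 downward genes, the most without DMC6. Leaving out a line makes non-overlap easier to meet. The difference in chicken MYCN was 4.61 with a pseudocount of 10 and 8.21 against DMC5 alone, against which hMYCN differed by 1.68 and GFP by 1.65. The number of genes called between T58A DMC and old DMC, 6 in the report, was 105 with the values as deposited, 13 with a pseudocount of 10, 10 with a filter of 1 read, 33 in a fit of those 6 libraries, and 0 to 2610 when each library was left out in turn, the most without DMC5, where the T58A group holds only lines chosen by their MYCN value and the count is no test. Weights from voom on the recovered reads gave 5. The cause was not tested. Of 3485 values of 205 single genes, 3194 moved by less than the spread between off lines and 291 by more. A set-apart gene cannot change sign when lines are left out or the pseudocount changes. The 0 sign changes among such genes therefore say little about stability. No paired analysis was possible because each line is a separate culture, and the numbers of the lines do not recur between the groups of lines.

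These values rest on 2 lines on one side and 1 library per line, and both on lines were T58A, long in culture and the shallowest of the 9. What belongs to chicken MYCN and what belongs to these lines cannot be told apart.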
